A study of Mus musculus with 5 samples.

Results

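Monocytes of the mouse liver were examined in 5 single-cell RNA libraries of liver cells. They were chosen by the molecules counted in each cell. A cell was taken where it held at least 4 molecules of Ly6c2, Chil3, F13a1, Ace and Treml4 together and at least 3 of Lyz2, the lysozyme of myeloid cells. It also had to hold no Siglech, at most 1 molecule of Xcr1, Clec9a and Cd209a together, fewer than 15 of C1qa, C1qb and C1qc, fewer than 10 of Clec4f, Cd5l and Vsig4, and fewer than 10 of Stab2 and Clec4g, which keeps out dendritic, Kupffer and sinusoidal endothelial cells. This gate took 180 of the 17188 cells that passed the filters of at least 500 molecules, at least 200 genes and at most 25% mitochondrial molecules, out of 19815 cells deposited. Levels of the gate's genes, and every contrast of the gated cells with other cells, are therefore given as descriptions with no test.

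The study compared sham surgery with partial inferior vena cava ligation (pIVCL), which narrows the vein that drains the liver and is used as a model of hepatic congestion. The mice were wild-type males operated on at 9 weeks of age, and the livers were taken 2 weeks later. All libraries came from livers perfused with pronase and collagenase, from which most hepatocytes were spun out and dead cells and erythrocytes were taken off on a density gradient. There were 2 sham and 3 pIVCL libraries, each labelled as 1 mouse (the file headers name the samples of pIVCL 2 and pIVCL 3 as P3 and P4, and the labels' names are used here), with 2680 to 5000 cells and 12448260 to 30523228 molecules per library. Both sham libraries and pIVCL 1 carry the batch label 2021.3, and pIVCL 2 and pIVCL 3 carry 2021.7, so batch and surgery largely overlap. Each library shared 62 to 92 cell barcodes with the other libraries. The p-values below measure the spread between these 5 libraries.

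Monocytes leave the bone marrow as classical, Ly6c2-high cells, which follow chemokines through the receptor Ccr2 into inflamed tissue and can become macrophages there. Some turn into patrolling, Ly6c2-low cells under the nuclear receptor Nr4a1, and these crawl along the inner wall of small vessels using the integrin Itgal and the fractalkine receptor Cx3cr1. In the liver, monocytes are the reserve from which lost Kupffer cells are replaced. The gate spans both kinds. Ly6c2 (a surface antigen), Chil3 (a chitinase-like protein) and F13a1 (the A chain of coagulation factor XIII) mark the classical side, and Ace (angiotensin-converting enzyme) and Treml4 (an immunoglobulin-like receptor) mark the patrolling side.

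The 250 bases before the start site are shown for a gate gene of each side, Ly6c2 and Ace, and for the granulocyte gene S100a8 and the granule protease gene Prtn3, on which the later results turn. The sequences are RefSeq's on GRCm38.p6, which is not the build of the deposited counts, and run 5′ to 3′ on the strand of the gene. The first listed start site was used for Ly6c2 and Ace, which have 2 each. Capitals mark GAGGAAGT or its reverse complement ACTTCCTC, a motif of the type bound by the myeloid factor PU.1 (Spi1), searched on both strands.
Ly6c2, chr15:75111972-75112221, minus strand: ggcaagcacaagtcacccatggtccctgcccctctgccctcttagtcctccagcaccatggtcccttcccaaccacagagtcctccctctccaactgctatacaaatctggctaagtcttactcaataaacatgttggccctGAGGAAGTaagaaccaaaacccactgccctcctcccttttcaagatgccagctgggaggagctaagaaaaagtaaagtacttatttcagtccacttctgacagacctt
Ace, chr11:105967698-105967947, plus strand: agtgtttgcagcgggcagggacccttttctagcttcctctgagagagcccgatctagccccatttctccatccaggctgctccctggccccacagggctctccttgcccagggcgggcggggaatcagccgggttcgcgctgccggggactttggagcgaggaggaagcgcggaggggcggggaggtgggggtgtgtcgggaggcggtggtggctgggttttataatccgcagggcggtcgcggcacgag
S100a8, chr3:90668821-90669070, plus strand: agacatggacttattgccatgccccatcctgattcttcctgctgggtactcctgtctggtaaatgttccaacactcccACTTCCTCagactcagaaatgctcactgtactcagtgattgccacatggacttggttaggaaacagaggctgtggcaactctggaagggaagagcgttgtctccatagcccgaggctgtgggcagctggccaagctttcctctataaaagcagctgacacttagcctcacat
Prtn3, chr10:79879417-79879666, plus strand: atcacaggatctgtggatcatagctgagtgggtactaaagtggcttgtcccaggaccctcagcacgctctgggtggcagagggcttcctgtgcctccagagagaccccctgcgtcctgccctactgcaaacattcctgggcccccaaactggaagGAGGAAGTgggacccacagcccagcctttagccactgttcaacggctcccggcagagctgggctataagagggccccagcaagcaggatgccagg
The motif lay 108 to 101 bases before the start in Ly6c2, 172 to 165 in S100a8 on the opposite strand and 95 to 88 in Prtn3, and these letters are not in the window shown for Ace, nor in those of Chil3, F13a1 and Treml4. Of 27025 genes with a window of this length, 660 (2.44%) held it. The match describes the letters only. Spi1 itself was counted in 89.9% of the 139 gated cells kept below after other lineages were set aside, in 93.9% of Kupffer cells and in 2.05% of endothelial cells.

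The gate was checked against genes that it did not use, and 28 of its 180 cells went against the label. Csf1r, the receptor for the growth factor of monocytes and macrophages, was found in 148 of the other 152 cells but in 5 of these 28, with at most 1 molecule. None of the 28 held Ccr2, which the gate did not use either. They were set apart by 63 to 433 molecules (median 233) of 8 granulocyte genes (Retnlg, Ly6g, Csf3r, Cxcr2, Mmp9, Camp, Ngp, Ltf), where the other 152 cells held at most 6 and the cut lay at 50. Their median S100a8 and S100a9 counts, subunits of the calprotectin of neutrophils, were 116 and 384 molecules. They met the gate through Ly6c2 (median 6.5 molecules), Chil3 (in 22 of the 28) and Lyz2 (in all 28). They were found in pIVCL libraries alone: 3 in pIVCL 1, 17 in pIVCL 2 and 8 in pIVCL 3.

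Setting aside the cells with at least 4 molecules of these granulocyte genes or of the T, NK, B and plasma cell genes removed 41 of the 180, namely 5 of 22 in sham 1, 0 of 11 in sham 2, 5 of 21 in pIVCL 1, 18 of 59 in pIVCL 2 and 13 of 67 in pIVCL 3. The 139 cells left, 28 from sham and 111 from pIVCL, are called the retained monocytes. In these, the 13 neutrophil genes made up 0.00765% to 0.0302% of molecules in each library, with Retnlg, Ly6g, Mmp9, Camp, Ngp and Ltf, all used to set cells aside, at 0, against 2.37%, 5.62% and 2.16% in all gated cells of pIVCL 1, 2 and 3. The main comparisons are given for both sets of cells, except the classical-side test, which is given for all gated cells alone.

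The retained monocytes carried the genes of the lineage beyond the gate. A molecule of Csf1r was found in 97.8% of them, against 5.77% of endothelial cells, which should lack it, and 99.8% of Kupffer cells. Ccr2 was found in 87.1% of them, against 1.55% of endothelial and 4.68% of Kupffer cells, and dendritic cells, with 89.3%, were as often positive. Median molecules per cell were 4078 in retained monocytes, 4902 in endothelial, 8506 in Kupffer and 6234 in dendritic cells. Apoe, an apolipoprotein gene of resident macrophages, showed the reverse. It was at 963 CPM (molecules of the gene scaled by each library's total, mean over libraries) in retained monocytes against 10232 in Kupffer cells. Adgre1, which encodes F4/80, was likewise at 111 against 876 CPM. Treml4, a gate gene and so only described, was held by 48.3% of Kupffer cells (104 CPM) and 16.5% of retained monocytes (38.8 CPM).

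Apart from the gate's genes, the highest ratios of CPM in retained monocytes to CPM in all other cells belonged to Cd177 (167 against 0.645 CPM), a surface protein best known from neutrophils, and to Gm9733 (113 against 0.497 CPM). Gpr141, an orphan receptor, followed at 460.2 against 5.61 CPM and was found in 74.8% of retained monocytes and 1.36% of other cells. The leading 20 genes also held the chemokine Ccl9 (565 against 14.2 CPM), the calcium-binding protein S100a4 (1217 against 31.3), the interferon-inducible membrane protein Ifitm6 (811 against 25), Ccr2 (2651 against 86.2), the guanine deaminase Gda (783 against 18.4) and Emb (717 against 24.7), which encodes embigin. Of these 20 genes, 19 were higher in the monocytes of all 5 libraries, and the exception, Nfe2, was higher in 4. In all 180 gated cells the first 2 were Cd177 and Mmp8, a neutrophil collagenase, at 345 and 707 CPM.

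**Figure D1:**
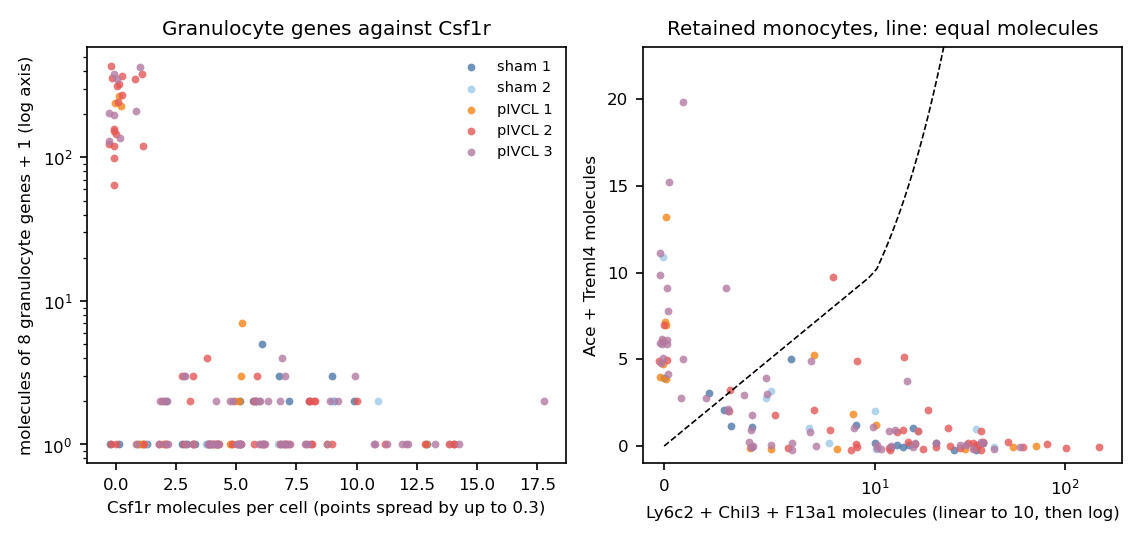
Left, molecules of the 8 granulocyte genes (log axis) against Csf1r molecules, with 1 point per gated cell coloured by library. The 28 cells at the upper left are from pIVCL libraries and hold at most 1 molecule of Csf1r. Right, molecules of Ace and Treml4 against those of Ly6c2, Chil3 and F13a1 in each retained monocyte, with a dashed line where the 2 sums are equal.

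The edge of the gate was not sharp. The 31 cells just inside it, with 4 or 5 molecules of the 5 genes, had Csf1r in 83.9% and Ccr2 in 71.0%, and a mean of 79.0 Lyz2 molecules. The 23 cells just outside it, with 2 or 3 molecules, had Csf1r in 87.0%, Ccr2 in 69.6% and a mean of 65.1 Lyz2 molecules. In the 149 cells well inside, these values were 85.2%, 74.5% and 114. Cells just outside the gate thus carried the same lineage genes about as often as those just inside.

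The share of gated monocytes among all cells was lowest in the 2 sham libraries and higher in all 3 pIVCL libraries, though the exact permutation test used cannot reach 0.05 with 5 libraries. They were 0.495% of cells in sham 1 (22 of 4441, exact Clopper-Pearson 95% interval 0.311 to 0.749%) and 0.287% in sham 2 (11 of 3831, 0.143 to 0.513%). In pIVCL 1, 2 and 3 they were 0.807% (21 of 2601, 0.500 to 1.23%), 1.69% (59 of 3484, 1.29 to 2.18%) and 2.37% (67 of 2831, 1.84 to 3.00%). The groups did not overlap, and pIVCL 1 lay nearest to sham. The intervals cover counting error only. The means were 0.391% ± 0.147 (SD, n = 2) in sham and 1.62% ± 0.782 (SD, n = 3) in pIVCL, a difference of 1.23 percentage points, with p = 0.20 in an exact two-sided permutation test over libraries, whose 10 arrangements allow no p below 0.10.

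The order of the libraries was the same among the retained monocytes, which were 0.383% and 0.287% of cells in sham and 0.615%, 1.18% and 1.91% in pIVCL, a difference of 0.898 points. Within batch 2021.3 the difference between pIVCL 1 and the 2 sham libraries was 0.416 points (exact permutation p = 0.333, the smallest that 3 libraries allow). Library composition differed too. Sinusoidal endothelial cells numbered 2608 and 2217 in sham and 1247, 1521 and 540 in pIVCL, and Kupffer cells 846 and 583 in sham and 264, 365 and 399 in pIVCL. Whether monocytes rose or the other cells were fewer in the suspension cannot be told apart by shares. Among gated monocytes, Kupffer and dendritic cells alone, monocytes were 2.43% and 1.75% in sham and 6.62%, 12.2% and 13.6% in pIVCL. The limit on the C1q genes took more cells from sham. Only 14 of the cells it took met every other limit, and without it the difference was again 1.23 points. The Kupffer limit stayed on there and takes mostly the same cells, so that check could not move the share by much. Cells that met all limits but the C1q and Kupffer ones numbered 64 and 33 in sham and 14, 7 and 16 in pIVCL. Of these 134 cells, 120 exceeded both limits, and the shares with both lifted were not computed.

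**Figure D2:**
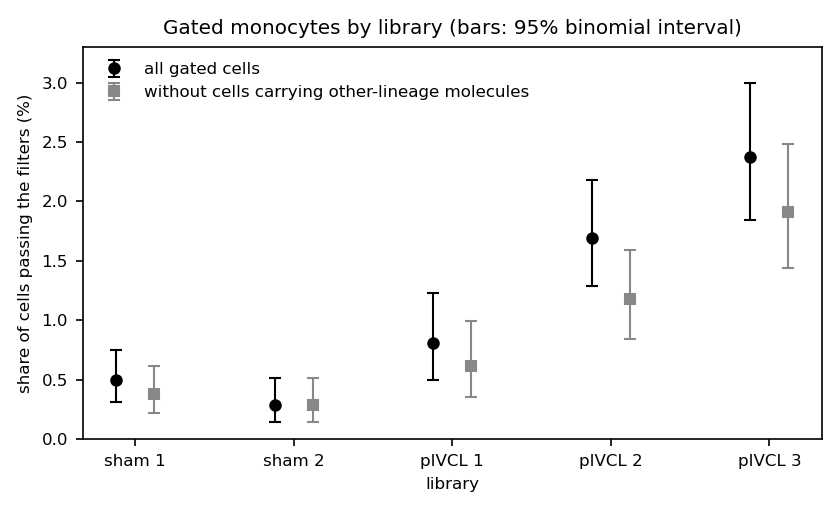
Share of cells taken as monocytes in each library (percent), for all gated cells (black circles) and for the retained monocytes (grey squares), with exact 95% binomial intervals for counting error. The 3 pIVCL libraries, from 0.807% to 2.37% for all gated cells, lie above both sham libraries.

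Classical cells were the majority in all 5 libraries. A cell was placed on the classical side where Ly6c2, Chil3 and F13a1 together outnumbered Ace and Treml4, which gave 145 classical cells, 34 patrolling cells and 1 with equal numbers. Of the 180 cells, 52 held genes of both sides and 10 lay within 1 molecule of the split. The patrolling side made up 13.6% (3 of 22, 95% interval 2.91 to 34.9%) and 9.09% (1 of 11, 0.230 to 41.3%) in sham, and 33.3% (7 of 21, 14.6 to 57.0%), 6.78% (4 of 59, 1.88 to 16.5%) and 28.4% (19 of 67, 18 to 40.7%) in pIVCL. The groups overlapped, since pIVCL 2 had the lowest share of all. Among the retained monocytes the shares were 11.8% and 9.09% in sham and 43.8%, 9.76% and 33.3% in pIVCL, so that sham 2 was lowest and pIVCL 2 lay between the sham libraries. The difference of group means was 11.5 points in all gated cells and 18.5 points in the retained monocytes (exact permutation p = 0.400 and 0.30). The first changed sign, to -1.12 points (exact permutation p = 0.800), when cells were thinned to 1500 molecules and gated again. Cells with fewer molecules were left out there. Patrolling cells then numbered 1 and 1 in sham and 1, 1 and 7 in pIVCL. Without thinning, the first difference was 6.21 points without pIVCL 1, 19.5 without pIVCL 2 and 22 within batch 2021.3, so no direction is given for it.

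Among the retained monocytes, 106 were classical and 32 patrolling, with medians of 4149.5 and 3430 molecules. By CPM, most side genes that the split had not used divided the same way (values pooled over libraries, a description without a test). The patrolling cells were 2 and 1 in sham 1 and 2, and 7, 4 and 18 in pIVCL 1, 2 and 3. Differences between the sides, here and for the lists below, are thus mixed with those between libraries. Of 16 further classical genes, 15 had a higher CPM on the classical side. Fibronectin (Fn1) was found in 75.5% of classical and 9.38% of patrolling cells, Ms4a4c in 84.9% and 28.1%, and Ccr2 in 98.1% and 53.1%. The exception was Sirpb1c. All 18 further patrolling genes had a higher CPM on the patrolling side. Nr4a1 was at 283 CPM on the classical and 719 CPM on the patrolling side, Itgal at 546 and 1203 and Cx3cr1 at 436 and 679.8. By share of cells Cx3cr1 went the other way, found in 73.6% of classical and 68.8% of patrolling cells. The enolase Eno3 was found in 0.943% of classical and 46.9% of patrolling cells, and the scavenger receptor Cd36 in 8.49% and 56.2%. Patrolling values here and below include cells with 121 (sham 1), 14 (pIVCL 2), 234 and 215 (both pIVCL 3) molecules of 14 endothelial genes. Those cells held 9071, 9257, 11621 and 8725 of the side's 127987 molecules. Their part in the patrolling values was not tested.

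Other lists were counted in the same way, but no share over all genes stands beside these counts, so they are descriptions only. The class II genes for antigen presentation were higher on the patrolling side in 7 of 10, with H2-Ab1 at 738 CPM in classical and 2742 CPM in patrolling cells. Interferon-response genes were higher on the classical side in 16 of 19. Immediate early genes, which answer stimulation and tissue handling, were higher on the patrolling side in 12 of 17, and macrophage differentiation genes in 15 of 22. Of the latter, Ms4a7, Cd163, Gpnmb and Folr2 were placed there by 1 molecule each. The genes common to all monocytes were divided 8 to 8. By ratio, the classical side was led by Psmg4, Slpi, Tmem71 and Asnsd1, and the patrolling side by Cd300e, Eno3, Dusp16, Cd36 and Bhlhe40. Cd36 and Bhlhe40 were higher on the patrolling side in all 5 libraries, Eno3 in 4, Cd300e in 3 and Dusp16, with 14 molecules there, in 2. Psmg4 and Slpi were counted in no patrolling cell and Cd300e in no classical cell.

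**Figure D3:**
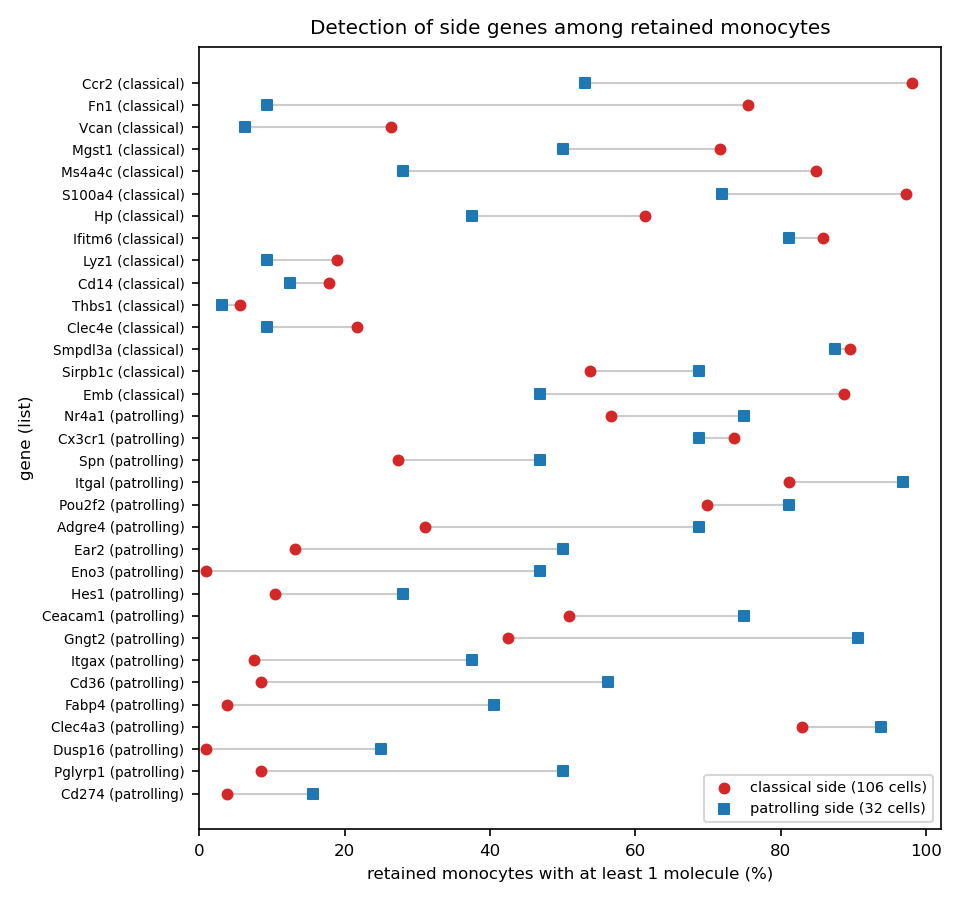
Percent of retained monocytes with at least 1 molecule of the classical and patrolling list genes shown, for the 106 classical (red circles) and 32 patrolling cells (blue squares), pooled over libraries. Fn1 and Ms4a4c were found mostly in classical cells, and Eno3 and Cd36 mostly in patrolling cells.

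To ask what ligation changed within the monocytes, molecules were summed per library and tested with edgeR's quasi-likelihood test at a Benjamini-Hochberg adjusted p of 0.05. In this test CPM is scaled by TMM over the genes tested. In all gated cells 64 of 2288 genes passed (2.80%), 44 higher (1.92%) and 20 lower (0.874%) in pIVCL. Some of the 44, such as S100a8, Prtn3, Chil1, Olfm4 and Rflnb, had no sham molecule and were admitted to the test on pIVCL counts alone. Their direction was fixed in advance, so 44 against 20 is a description only. Of 1717 genes tested in the retained monocytes 7 passed (0.408%), with Alb, Prtn3, Stmn1 and Mki67 higher (0.233%) and Lpl, Ly6a and Vwf lower (0.175%). Prtn3 and Stmn1 had no molecule in the retained sham cells either. Groups did not overlap for 34.0% of genes in all gated cells and 28.2% in the retained monocytes. All 7 were among the 64, of which 40 were tested in the retained monocytes and 39 kept their sign there. The 28 granulocyte-gene cells were 19.0% of the gated pIVCL cells and held 15% of their molecules. They held at least 50% of the pIVCL molecules of 21 of the 44 genes that rose, and at least 90% of 11, Ly6g, Cxcr2 and Mmp9, which define them, included in both. With batch as a term 61 genes passed in all gated cells, and of the 40 named genes that had passed 24 did so, with all 40 in the same direction. Without sham 1 the count was 30 in all gated cells, and without pIVCL 1 it was 116. Among the retained monocytes it was 2 without sham 1, 33 without sham 2 and 80 without pIVCL 1.

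Granulocyte genes were among the rises in all gated cells. S100a8 was at 0 and 0 CPM in sham and at 7990.4, 9990.1 and 3709.9 CPM in pIVCL, at least 283-fold higher against a floor of 3 molecules over the sham group (edgeR adjusted p = 0.0334, 0.176 without pIVCL 1 and 0.449 with batch as a term). The retained monocytes held it at 0 and 0 CPM in sham and at 23.9, 18.3 and 0 in pIVCL, 4 molecules in all. Mmp9, a gelatinase stored in neutrophil granules, was at 0 in both sham libraries and at 767, 530.3 and 599 CPM in pIVCL (at least 24.5-fold, edgeR adjusted p = 7.14e-08), and so was the chemokine receptor Cxcr2, at 405, 413 and 169.9 CPM (at least 12.4-fold, edgeR adjusted p = 0.000186). Both are among the genes by which the granulocyte-gene cells were set aside, so their place in those cells follows from that choice. Of genes not used for it, Rflnb had 127 of 132 pIVCL molecules there, and Chil1 and Olfm4 had all of theirs. S100a8, S100a9, Lcn2 and Ly6g were named after their values were seen. The last 3 were at 0 in sham as well, S100a9 did not pass (edgeR adjusted p = 0.274), and of Lcn2 1840 of 1844 molecules lay in those cells. Of the 12 neutrophil genes tested, 6 rose and all 12 were higher in pIVCL. Their median log2 difference was 10.43 as fitted and 5.93 with genes at 0 in sham set at their bound. Over all genes tested it was 0.04. S100a8, S100a9, Ly6g, Cxcr2, Mmp9, Lcn2, Retnlg, Camp, Ngp and Ltf were at 0 in sham, so the expression filter admitted them on pIVCL counts alone. Their direction was thus fixed in advance, and the count and median are descriptions only.

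Ifitm6 and Pglyrp1, of the classical and patrolling lists, rose in all gated cells and did not pass in the retained monocytes. Ifitm6 was at 888 and 837 CPM in sham and 2012, 1829 and 1748 in pIVCL in all gated cells (log2 difference 1.10 ± 0.27 SE, edgeR adjusted p = 0.0143). Retained monocytes held it at 1176 and 913 CPM in sham and 1529, 818 and 1086 in pIVCL, and the groups overlapped (0.08 ± 0.32, edgeR adjusted p = 0.985). The call in all gated cells was lost without sham 1 or sham 2 (edgeR adjusted p = 0.225 and 0.211). Pglyrp1, a peptidoglycan-binding protein on the patrolling list, had 419 of its 487 pIVCL molecules in the granulocyte-gene cells, and its log2 difference was 4.10 in all gated cells and 1.92 in the retained monocytes (edgeR adjusted p = 3.08e-06 and 0.582).

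In pIVCL, a granule protease and cell-cycle genes rose in the summed molecules of the retained cells, and few cells held them. Prtn3, the serine protease proteinase 3 of myeloid precursors, was at 0 and 0 CPM in sham and at 143, 525 and 338 CPM in pIVCL, at least 12.3-fold higher (edgeR adjusted p = 0.00700). With no sham molecule, Prtn3 passed the expression filter on pIVCL counts alone, so its direction was fixed in advance. It was found in 2 of 16, 9 of 41 and 9 of 54 retained pIVCL cells, and in pIVCL 2 and pIVCL 3 single cells held 41 of 86 and 40 of 60 molecules. Only 6 of its 227 molecules in all gated pIVCL cells lay in the granulocyte-gene cells. Elane and Mpo, the neutrophil elastase and myeloperoxidase of the same precursors, were looked at after these values were seen. They were at 0 in both sham libraries and at 47.8, 1154 and 113 CPM (Elane) and 0, 793 and 478 CPM (Mpo) in the retained pIVCL monocytes. Elane was not tested there, and Mpo did not pass (edgeR adjusted p = 0.654). Single retained cells of pIVCL 2 held 101 of 189 Elane and 105 of 130 Mpo molecules. The granulocyte genes by which cells were set aside do not include Prtn3, Elane or Mpo, so cells carrying these stayed among the retained monocytes. Whether the cells with Prtn3 are monocytes or precursors was not tested.

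Mki67, which encodes the proliferation antigen Ki-67, was at 18.4 and 0 CPM in the retained sham monocytes and at 143, 555 and 281 CPM in pIVCL (log2 difference 4.88 ± 0.95 SE, edgeR adjusted p = 0.0153). It was found in 1 sham cell and in 1, 10 and 4 cells of pIVCL 1, 2 and 3. Stmn1, a microtubule regulator of dividing cells, was at 0 and 0 CPM in sham and at 143, 501 and 259 CPM in pIVCL, at least 10.8-fold higher (edgeR adjusted p = 0.0104). Both were higher in all 3 pIVCL libraries than in either sham library, and both rest on few cells: 0 and 0 retained sham cells and 1, 10 and 4 retained pIVCL cells held at least 5 molecules of the 14 cycling genes. Of the 5 cycling genes tested, 2 rose and all 5 were higher in pIVCL. Their median log2 difference was 7.96 as fitted and 3.63 with genes at 0 in sham set at their bound. Of these, Stmn1, Top2a and Pclaf were at 0 in sham and passed the expression filter on pIVCL counts alone. Their direction was thus fixed in advance, and the count and median are descriptions only. The topoisomerase Top2a, at 0 and 0 CPM in sham and 47.8, 848 and 405 CPM in pIVCL, did not pass (edgeR adjusted p = 0.538). In all gated cells 4 of 8 cycling genes rose, and Ccna2, Cks1b and Nusap1, cell-cycle genes outside the list, rose there too, all from 0 in sham. Prtn3 and at least 5 cycling molecules occurred together in 9 of the 20 retained cells with Prtn3. A count of 0 among 28 retained sham cells allows a share of cycling cells of up to 10.7% for counting error, and the shares in pIVCL 1, 2 and 3 were 6.25%, 24.4% and 7.41%, so that only pIVCL 2 lay above this limit. Without sham 1 the calls of Prtn3, Mki67 and Stmn1 were lost (edgeR adjusted p = 0.331, 0.364 and 0.364), as they were with batch as a term (0.0838, 0.216 and 0.0982). Among the retained monocytes these 3 genes did not pass the expression filter without pIVCL 2 or pIVCL 3 and have no test there.

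**Figure D4:**
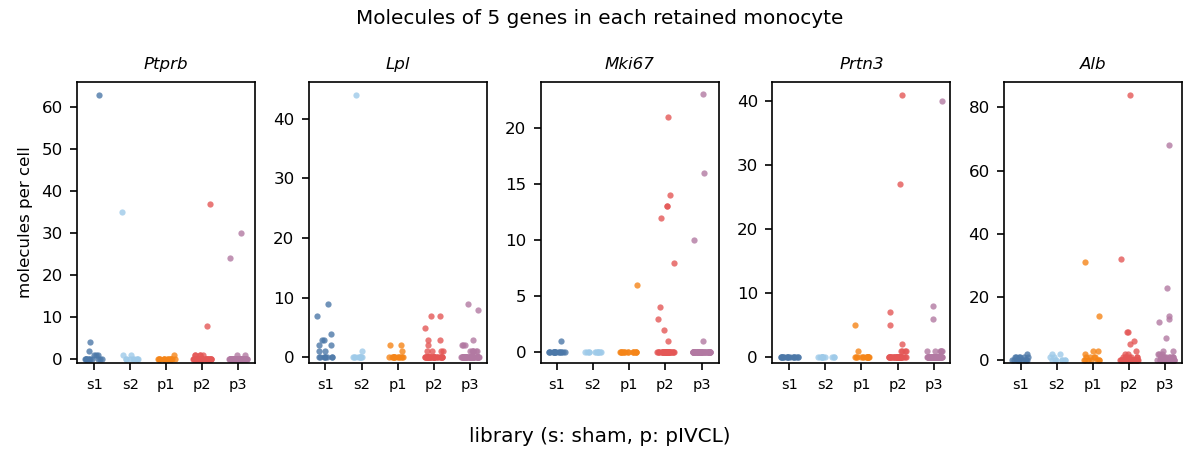
Molecules of Ptprb, Lpl, Mki67, Prtn3 and Alb in each retained monocyte, by library (s for sham, p for pIVCL, 1 point per cell). Mki67 and Prtn3 molecules lie in few cells of the pIVCL libraries, and most sham molecules of Ptprb, and 44 of 45 Lpl molecules in sham 2, lie in single cells.

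The rise of Alb, which encodes hepatocyte albumin, moved with other cell types. In the retained monocytes it was at 147 and 156 CPM in sham and 1362, 971 and 912 in pIVCL, with no overlap (log2 difference 2.80 ± 0.40 SE, edgeR adjusted p = 0.000765). Single cells held up to 84 molecules, and the call was lost without sham 1 (edgeR adjusted p = 0.101). The highest retained cell held 31 of 57, 84 of 159 and 68 of 162 Alb molecules in pIVCL 1, 2 and 3. A molecule was found in 41.2% and 36.4% of retained sham cells and in 56.2%, 39.0% and 44.4% of retained pIVCL cells. Endothelial cells held Alb at 149 and 58.6 CPM in sham and 267, 395 and 238 in pIVCL, and Kupffer cells at 96.2 and 47.2 in sham and 231, 372 and 357 in pIVCL. Of the 9 hepatocyte genes tested in the retained monocytes, 1 rose and 8 were higher, with a median log2 difference of 2.00. Over all genes tested 866 of 1717 were higher, with a median of 0.00. The part of free or carried-over hepatocyte RNA in this was not tested. With the 3% of cells of highest doublet score left out, Alb did not pass in all gated cells (log2 difference 1.21, edgeR adjusted p = 0.149).

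Lpl, the lipoprotein lipase that splits triglycerides, fell in pIVCL. It was at 588 and 1173 CPM in the retained sham monocytes and 119, 189 and 180.1 CPM in pIVCL, with no overlap (log2 difference -2.32 ± 0.38 SE, edgeR adjusted p = 0.00241). In sham 1 it was spread over 9 of 17 cells, but in sham 2 it was found in 2 of 11 cells and 44 of its 45 molecules lay in 1. In pIVCL it was found in 3 of 16, 10 of 41 and 12 of 54 cells. Lpl passed in the retained monocytes without each pIVCL library in turn and with batch as a term (edgeR adjusted p = 0.0229). Its log2 difference was -2.86 within batch 2021.3, -1.76 without sham 2 and -2.74 without sham 1, where the sham side rests on that 1 cell of sham 2. By share of cells, sham 2 with 18.2% lay below the 18.8%, 24.4% and 22.2% of pIVCL. Outside that 1 cell the fall was thus seen against sham 1 alone.

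The other falls in the retained monocytes rested on single cells that held endothelial genes. Vwf, the von Willebrand factor of endothelium and platelets, was at 423 and 183 CPM in sham and 0, 0 and 16.9 in pIVCL (edgeR adjusted p = 0.0220). All 23 molecules of sham 1 and all 7 of sham 2 lay in 1 cell each. Ly6a, the stem cell antigen Sca-1, was at 772 and 287 CPM in sham and 23.9, 18.3 and 95.7 in pIVCL (edgeR adjusted p = 0.0118), with 41 of 42 and 8 of 11 sham molecules in 1 cell of each library. The call of Ly6a was lost without sham 1 (edgeR adjusted p = 0.551), and those of both genes were lost with batch as a term (edgeR adjusted p = 0.139 for each). The sham 1 cell with 23 Vwf molecules held 63 of Ptprb, an endothelial phosphatase, 4 of Ace, 3 of Lyz2 and none of Csf1r, so it met the gate at its lowest Lyz2 value. In all, 7 retained cells held at least 10 molecules of 14 endothelial genes, 1 in each sham library, 3 in pIVCL 2 and 2 in pIVCL 3. In all gated cells Pecam1, an adhesion molecule of endothelium, and Ntn4, a netrin of basement membranes, fell as well, with 17 of 31 and 25 of 32 sham molecules in 1 cell.

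**Figure D5:**
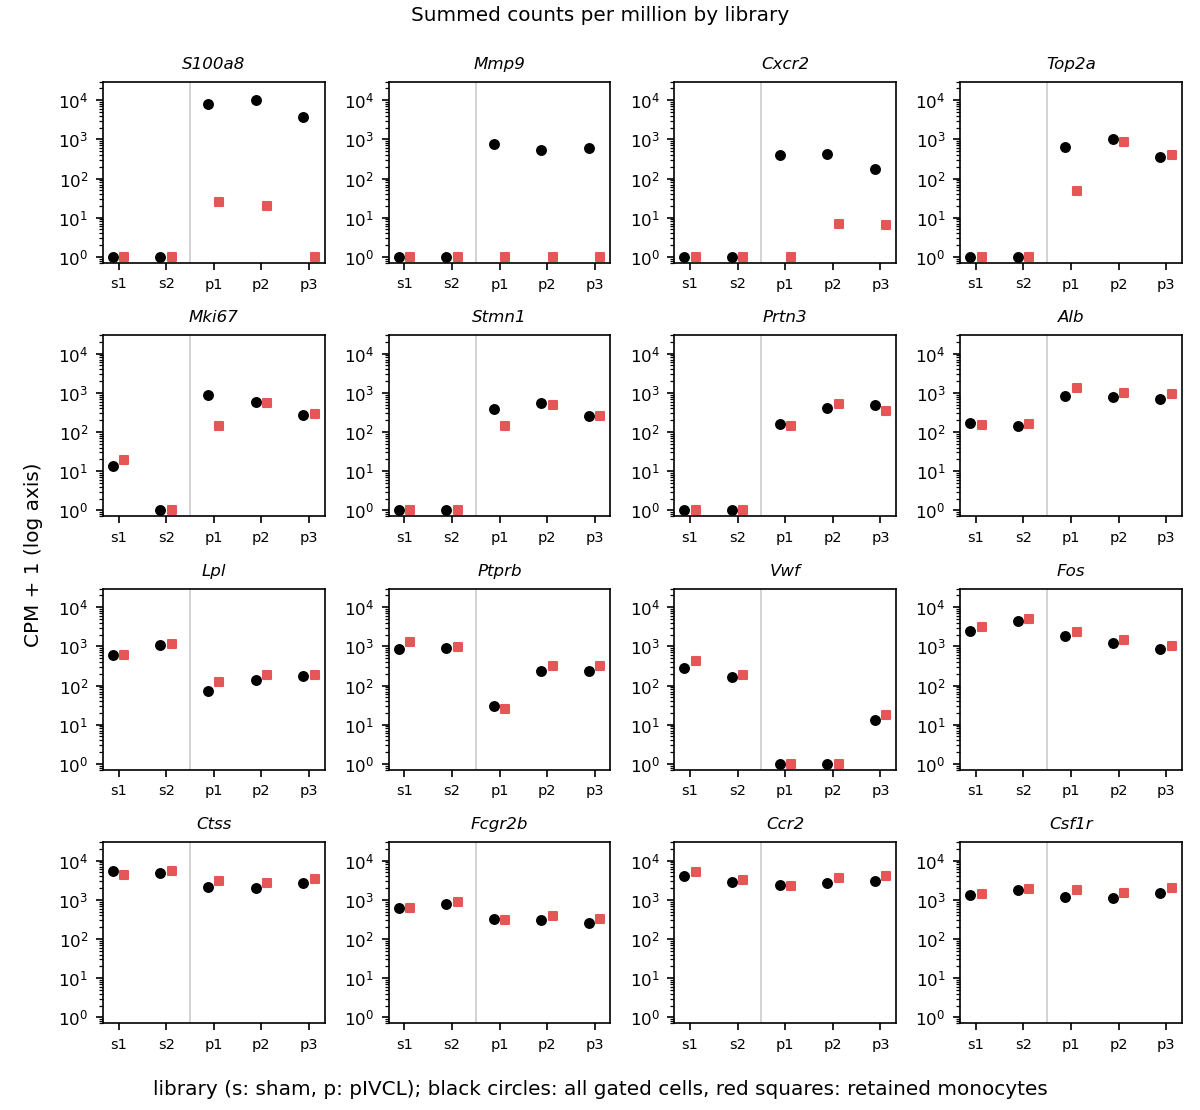
TMM-scaled CPM plus 1 (log axis) of 16 genes in each library (s for sham, p for pIVCL), for all gated cells (black circles) and the retained monocytes (red squares). S100a8 and Mmp9 separate the groups in all gated cells and lie at or near 0 in the retained monocytes (Mmp9 by the choice of those cells), whereas Prtn3, Mki67 and Lpl separate the groups in both.

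The immediate early genes Fos and Fosb fell in all gated cells and did not pass in the retained monocytes. In all gated cells Fos, a subunit of the transcription factor AP-1, was at 2494 and 4521 CPM in sham and 1795, 1209 and 878 in pIVCL (log2 difference -1.45 ± 0.30 SE, edgeR adjusted p = 0.0138), with no overlap. Its relative Fosb fell too (-1.83 ± 0.43, edgeR adjusted p = 0.0138). With batch as a term neither passed (edgeR adjusted p = 0.107 and 0.344), and without sham 2 neither did (0.0918 and 0.245). Fos did not pass without pIVCL 2 either (0.0526), nor Fosb without pIVCL 3 (0.0831). For the retained monocytes the 2 differences were -1.34 and -1.60 and missed the threshold (edgeR adjusted p = 0.0729 and 0.10). Of 13 immediate early genes tested in all gated cells, 2 fell, none rose and all 13 were lower, with a median of -0.55. Of all 2288 genes tested there, 1070 were lower (median 0.04). Among 11 tested in the retained monocytes none passed and 9 were lower (median -0.39, against 0.00 over all genes tested, of which 851 of 1717 were lower). As a share of the molecules of retained monocytes, the list made up 0.958% and 1.22% in sham and 1.07%, 0.647% and 0.576% in pIVCL, with pIVCL 1, of the same batch as sham, between the sham libraries.

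Ctss, Psap and Fcgr2b fell in all gated cells and missed the threshold in the retained monocytes. The lysosomal protease Ctss was at 5536 and 4880.2 CPM in sham and 2171, 1955 and 2638 in pIVCL (log2 difference -1.21 ± 0.21 SE, edgeR adjusted p = 0.000421), and in the retained monocytes at 4391 and 5319.8 in sham and 2963, 2655 and 3439 in pIVCL (-0.68 ± 0.22, edgeR adjusted p = 0.264). Without sham 1 it did not pass in all gated cells (edgeR adjusted p = 0.125). In sham 1, 141 of its 455 molecules lay in 1 cell that was not retained. Psap, which encodes the saposin precursor, and the inhibitory Fc receptor Fcgr2b also passed (edgeR adjusted p = 0.0357 and 0.0143), and in the retained monocytes their differences were -0.28 and -1.09 (edgeR adjusted p = 0.660 and 0.224). Another lysosomal protease, Ctsb, did not pass (edgeR adjusted p = 0.333), and of 7 Fc and scavenger receptor genes tested in all gated cells Fcgr2b alone fell, with 2 higher in pIVCL. The cytoskeletal scaffold Ahnak, at 1819 and 1773 CPM in retained sham and 741, 873 and 749 in retained pIVCL monocytes, lay closest to the threshold (-1.18 ± 0.28, edgeR adjusted p = 0.0597). The fall of Fabp5, a fatty acid carrier, rested on 1 sham cell with 42 of the 50 sham molecules, and in the retained monocytes it stood higher in pIVCL (0.81 ± 0.82, edgeR adjusted p = 0.820).

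The genes that define monocytes and steer them into tissue did not pass. Ccr2 in the retained monocytes was at 5126 and 3129 CPM in sham and 2270.3, 3662 and 3957 in pIVCL (log2 difference -0.31 ± 0.26 SE), Csf1r at 1451 and 1904 against 1816, 1526 and 2015 (0.10 ± 0.27) and Cx3cr1 at 827 and 495 against 669, 519 and 782 (-0.04 ± 0.33). The groups overlapped for all 3, and their edgeR adjusted p-values were 0.758, 0.982 and 0.992. Fn1, Nr4a1, Itgal, Pou2f2, Spn, Cxcr4 and Apoe did not pass either, with log2 differences between -0.19 and 0.67. The class II genes H2-Ab1 and Cd74 spread widely between libraries, at 239 to 2398 and 772 to 3596 CPM. Gngt2, a G-protein subunit found more on the patrolling side, was at 73.5 and 130.4 CPM in sham and 526, 232 and 597 in pIVCL with no overlap (2.16 ± 0.55, edgeR adjusted p = 0.10), and the actin regulator Fmnl1 at 220.5 and 339 against 645, 751 and 759.8 (1.41 ± 0.37, edgeR adjusted p = 0.10).

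By list, no gene of the retained monocytes passed among 12 classical genes tested (3 higher, median log2 difference -0.15), 13 patrolling (10 higher, 0.41), 16 shared monocyte (3 higher, -0.22), 12 trafficking (4 higher, -0.10), 13 interferon (3 higher, -0.55), 6 cytokine and chemokine (3 higher, -0.09), 6 macrophage differentiation (3 higher, -0.01), 5 class II (4 higher, 0.71), 7 Fc and scavenger receptor (4 higher, 0.19), 5 hypoxia and glycolysis (5 higher, 0.73) and 3 matrix and coagulation genes (2 higher, 0.13). Over all genes tested in the retained monocytes, 866 of 1717 were higher and 851 lower. In all gated cells 10 of 13 interferon genes were lower (median -0.72) and none passed, beside 1070 lower of all 2288 genes tested. Il1b and Tgfb1, the cytokine genes interleukin-1β and TGF-β1, had 3 and 11 molecules in the retained sham monocytes and were too sparse to be tested. The mitochondrial genes, of which 3 of 12 fell in all gated cells, had none pass in the retained monocytes (8 of 12 lower, median -0.21).

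Restricting the test to the classical side, so that a shift between the sides could not move it, gave 71 of 1885 genes (3.77%), 55 higher (2.92%) and 16 lower (0.849%), of which 49 were also among the 64 of all gated cells. Without pIVCL 1 the count was 133 and without pIVCL 2 it was 46. The granulocyte-gene cells are part of this side too: 9 of 12 neutrophil genes rose, with 5 of 7 cycling genes. Those at 0 in sham had their direction fixed in advance, as above. Among 11 immediate early genes, 3 fell and all were lower (median -0.79), beside 904 lower of all 1885 genes tested (median 0.03). The same test on the retained classical cells was not run, since pIVCL 1 held 9 of them, and the patrolling side, with 1 cell in sham 2, was not tested.

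The pIVCL effect in monocytes was set against that in Kupffer cells, the resident macrophages of the same libraries, by the interaction term of 1 edgeR model. It differed for 150 of 10115 genes in all gated cells (1.48%), 91 higher (0.900%) and 59 lower (0.583%) than in Kupffer cells. For the retained monocytes it differed for 68 of 9769 genes (0.696%), 34 in each direction (0.348%), and 59 genes were in common. Without sham 1 the 150 became 35, without pIVCL 2 they became 51, and within batch 2021.3 there were 33. Mki67 in the retained monocytes was at 12.1 and 0 CPM in sham and 89.7, 407 and 196 in pIVCL, while in Kupffer cells it was at 76.4 and 48.0 in sham and 25.2, 28.5 and 13.9 in pIVCL. The values ran in opposite directions in the 2 cell types, with a log2 difference between the effects of 6.63 ± 0.90 SE (edgeR adjusted p = 5.55e-10). The chromatin protein Hmgb2, at 458 and 332 CPM in sham and 808, 1820.1 and 635 in pIVCL monocytes, lay at 220.1 and 246 CPM in sham and 176, 156 and 94.4 in pIVCL Kupffer cells (2.11 ± 0.32, edgeR adjusted p = 4.29e-08). Lpl was at 386 and 747 CPM in sham and 74.8, 139 and 125 in pIVCL monocytes, but at 2192 and 1539 in sham and 1470.2, 1487 and 1579 in pIVCL Kupffer cells (-1.90 ± 0.31, edgeR adjusted p = 1.29e-06). Its value in sham 2 monocytes rests on 1 cell, as given above. Among the genes of lowest p, Ptprb, Ly6a, Fbln2 and Edn1 are endothelial or vessel-wall genes, and 63 of 72, 41 of 42, 18 of 18 and 13 of 13 of their molecules in sham 1 monocytes lay in 1 cell.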

How the data were processed

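Molecule counts per gene and cell were deposited by the authors, 1 table per library, made with the BD WTA Rhapsody Analysis Pipeline 1.9.1 on GRCm39 per the file headers, with molecular identifiers corrected for sequencing errors. No source used here gives the aligner or the annotation. Cells were filtered and gated on these counts with Python 3.11.15, and Scrublet scores came from scanpy 1.11.5. The highest 3% of scores per library were left out only as an alternative. Molecules were summed per library and tested with edgeR 4.0.16 (R 4.3.3; filterByExpr, TMM, robust quasi-likelihood, Benjamini-Hochberg over all genes tested), and DESeq2 1.42.0 was an alternative. The scripts were tested on simulated data. Shares were compared by exact permutation over libraries. The 28 cells' cut was 50 granulocyte molecules.

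Genes were named by rule: passing genes without overlap between groups and with a mean log2 CPM of at least 6 (the 10 largest per direction, or the 5 of lowest p where fewer than 5 passed), the 2 of lowest p in each list with a passing member, a preset list, the leading 20 and 10 genes by ratio in at least 25% of cells, and the 5 of lowest interaction p per direction. Members and lists were chosen with earlier results of these data known. Replicate numbers recur in both groups but no label ties them, so they pair nothing.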

Additional observations from a re-analysis of the deposited data

Results flagged for a closer look

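The pIVCL effect differed between gated cells and Kupffer cells by the interaction test (edgeR quasi-likelihood, Benjamini-Hochberg adjusted), and the 5 genes of lowest p in each direction are given here as the log2 effect in gated cells minus that in Kupffer cells. The difference was 15.04 for Mmp9 and 16.48 for S100a8, which were at 0 in both sham libraries of gated cells, so that these fitted sizes depend on the prior count. Neither is read in the retained monocytes, since those were chosen by leaving out cells with granulocyte genes, Mmp9 among them. It was 7.72 for Mki67, 13.56 for Top2a, also at 0 in sham, and 2.64 for Hmgb2, and these 3 passed in the retained monocytes as well. It was -3.04 for Ptprb, -3.42 for Ly6a, -2.09 for Lpl, -4.76 for Fbln2 and -6.31 for Edn1, and these 5 also passed in the retained monocytes. Single retained cells of sham 1 held 63 of 72 Ptprb, 41 of 42 Ly6a, 18 of 18 Fbln2 and 13 of 13 Edn1 molecules. In sham 2, 1 retained cell held 44 of 45 Lpl molecules. Both fits share these cells, so passing in both adds little.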

How the results depend on the processing

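The monocyte share was higher in pIVCL under every alternative run, by 0.416 to 1.64 points of all cells (0.859 to 1.64 without each library in turn), and p stayed above 0.05, below which the permutation test used cannot go. No alternative lifted the C1q and Kupffer limits together. Without the other-lineage cells and pIVCL 3, chosen after seeing the data, the difference was 0.561 points. The patrolling share changed sign when cells were thinned and gated again (-1.12 points, on few patrolling cells) and ranged from 6.21 to 19.5 points without each library in turn.

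In all gated cells 64 genes passed. The count was 150 with no expression filter, 7 in the retained monocytes and 30 to 116 without each library in turn. For the retained monocytes, as alternatives chosen after seeing the data, it was 2 to 80 without each library in turn, 4 with batch as a term and 15 in batch 2021.3 alone. On the classical side 71 became 126 with no filter and 46 to 133 without each library. The interaction count of 150 became 33 in batch 2021.3 alone, 68 in the retained monocytes and 35 to 155 without each library. DESeq2's size factors gave 157, of which 79 were higher and 78 lower, against 91 and 59. DESeq2's Wald test gave 52 for all gated cells and 50 for the classical side. A lone sham library is assumed to vary like the pIVCL libraries.

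The replicate block on numbers 1 and 2 gave 91 genes in all gated cells and 83 on the classical side, and share differences of 0.859 and 8.69 points. The correlations of same-numbered libraries' deviations were -0.03 and -0.02, so the numbers are not read as pairs.

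Among named genes, 8 of 1279 values changed sign where a direction was called in either fit. Fabp5 became 0.81 in the retained monocytes, 3.02 there without sham 2, 0.64 without pIVCL 1, 1.39 with batch as a term and 1.30 in batch 2021.3 alone. Ifitm6 became -0.08 there without sham 2 and -0.13 without pIVCL 1, and Cd74 became 1.55 there without sham 2 (edgeR adjusted p = 0.0274). Without each library in turn these 3 ranged from -2.15 to 3.02, -0.13 to 1.19 and -0.64 to 1.55. The cause was not tested. The stricter cell filter for the gene tests, and the classical side without other-lineage cells, were not run, since 1 library held 9 cells. Depth limits the sham side most, with 28 retained cells.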
